A study of Homo sapiens with 12 samples.

Results

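The 36 genes described here encode regulators and machinery of the G2 phase and of mitosis. They were chosen by name, with earlier results of these data known. They were followed in KYSE150 cells, an established human line of oesophageal squamous cell carcinoma, after a small interfering RNA (siRNA) against ANLN. ANLN encodes anillin, an actin-binding scaffold of the contractile ring that cleaves a dividing cell. All 36 were listed by gene name in both deposited tables, which hold 58735 gene IDs at 24 h and 38318 at 48 h, and all 36 passed the filter on low counts at both times. Cells labelled as wild type were transfected with a negative control siRNA (siNC) or with the siRNA against ANLN (siANLN), and RNA was taken after 24 h or 48 h. Each of the 4 groups had 3 libraries from labelled biological replicates, 12 in all, and all cells were transfected. The labels name 1 siRNA per arm, and its sequence is not given in the sources used here.

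Entry into mitosis is driven by cyclin-dependent kinase 1 (CDK1) bound to cyclin B, which the phosphatase CDC25C switches on by removing inhibitory phosphates. In mitosis, polo-like and Aurora kinases build the spindle, kinetochores attach chromosomes to microtubules, and the spindle checkpoint holds back the anaphase-promoting complex (APC/C) until every chromosome is attached. The APC/C with its activator CDC20 then marks cyclin B and securin for destruction, and the anillin ring closes between the separated chromosomes. Most of these genes are transcribed late in the cell cycle from promoters that carry CCAAT boxes, which bind NF-Y, and a cell cycle genes homology region, usually spelled TTTGAA or TTTAAA, which binds the MuvB complexes that act with B-MYB and FOXM1.

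Promoters of 4 genes are printed as examples of these elements, picked by their change at 48 h: CCNB1 and CENPF rose, and PLK1 and TOP2A fell. Each stretch is the 200 bases before the RefSeq start of the gene in GRCh38.p14, 5′ to 3′ on the gene's own strand, at chr5:69166950-69167149 (plus strand) for CCNB1, chr1:214602995-214603194 (plus strand) for CENPF, chr16:23678689-23678888 (plus strand) for PLK1 and chr17:40417897-40418096 (minus strand) for TOP2A. Capitals mark TTTGAA and also TTTAAA and CCAAT, on either strand, so TTCAAA and ATTGG are capitals too.
CCNB1: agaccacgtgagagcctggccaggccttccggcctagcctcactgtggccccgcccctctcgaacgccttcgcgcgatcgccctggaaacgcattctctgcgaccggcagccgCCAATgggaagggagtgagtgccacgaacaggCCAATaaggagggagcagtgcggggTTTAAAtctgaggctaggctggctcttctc
CENPF: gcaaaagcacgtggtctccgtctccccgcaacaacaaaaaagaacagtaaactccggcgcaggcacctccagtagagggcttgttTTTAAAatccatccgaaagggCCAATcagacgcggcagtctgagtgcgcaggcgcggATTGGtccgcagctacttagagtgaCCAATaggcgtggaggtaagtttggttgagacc
PLK1: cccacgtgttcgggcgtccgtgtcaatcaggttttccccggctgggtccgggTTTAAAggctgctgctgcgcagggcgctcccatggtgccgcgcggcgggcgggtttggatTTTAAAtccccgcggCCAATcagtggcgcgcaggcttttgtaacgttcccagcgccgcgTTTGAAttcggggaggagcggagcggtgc
TOP2A: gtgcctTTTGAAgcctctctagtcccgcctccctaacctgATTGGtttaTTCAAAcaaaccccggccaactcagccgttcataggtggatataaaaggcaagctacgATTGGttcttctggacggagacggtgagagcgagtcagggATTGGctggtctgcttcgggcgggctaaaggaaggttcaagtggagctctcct
CCNB1 held 1 TTTAAA and 2 CCAAT. CENPF held 1 TTTAAA and 3 CCAAT. PLK1 held 1 TTTGAA, 2 TTTAAA and 1 CCAAT, and TOP2A held 2 TTTGAA and 3 CCAAT. A match is a run of letters in the window and was not tested as a binding site.

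Promoter windows of 300 bases, from 250 before to 50 after the RefSeq start, were given for 30 of the 36 genes. FOXM1, AURKA, TTK, UBE2C, BIRC5 and TPX2 are not among them. Either TTTGAA or TTTAAA was present in 27 of the 30 (90%), against 27.9% of the 27305 genes with a window. CCAAT was present in 25 of the 30 (83.3%), against 39.7% of all. Both kinds stood together in 21 of the 30 (70%), against 11.2% of all. Both strands were read, and a CCAAT can share its last base with a TTTGAA or TTTAAA.

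Total counts were between 14891932 and 17921808 per library at 24 h and between 11805488 and 12448411 at 48 h. CPM below are read counts put on the same library total, with TMM factors computed within a time, and a mean carries its SD over 3 libraries. Changes are log2 of siANLN over siNC with the standard error (SE) of edgeR's quasi-likelihood fit, and a gene was called when its two-sided Benjamini-Hochberg adjusted p over all genes tested was under 0.05. ANLN itself stood at 911, 886 and 879 CPM in the siNC libraries at 24 h and at 110, 98.5 and 102 CPM in the siANLN libraries. At 48 h it stood at 731, 739 and 722 CPM against 83.7, 74.6 and 84.2 CPM, a log2 change of -3.18 (SE 0.031). The groups were far apart at both times, so the targeted gene went with the labels. The summed level of 7 squamous epithelial markers was between 2979 and 5476 CPM in every library. Endothelial markers summed to at most 2.10 CPM and fibroblast markers to at most 20.02 CPM. Of these 2 lists, TEK and COL1A2 were at 0 in every library, while other markers had reads. Immune markers summed to at most 1.95 CPM at 24 h and to between 36.2 and 65.8 CPM at 48 h, where CD68 alone had 413 to 783 counts per library. At 24 h CD68 had 0 to 5 counts per library. The tables of the times list different genes, so time and table processing cannot be told apart in this difference. PTPRC, a leukocyte marker, was at 0 at 24 h, but at 48 h no immune marker that was listed was at 0 in every library. The squamous sum moved with the siRNA, being 3947-4194 CPM in controls and 3308-3427 CPM after siANLN at 24 h and 5318-5476 against 2979-3007 CPM at 48 h, while the 48 h immune sum was 36.2-42.7 CPM in controls and 64.8-65.8 CPM after siANLN. The 48 h fibroblast sum was 18.7-20.02 CPM in controls against 9.52-11.8 CPM, and the endothelial sum 1.32-2.10 against 0.510-0.977 CPM. At 48 h 1 marker of each of these 3 lists was tested, and the immune marker was called higher (log2 0.73) and the fibroblast and endothelial markers lower (log2 -0.90 and -1.43). The part of these marker sums in the changes below was not tested. In such bulk RNA, more cells in G2 or mitosis and more of a transcript per cell cannot be told apart. The p-values rest on the spread between labelled biological replicates of 1 cell line.

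The 36 genes moved little, and in both directions. At 24 h, 7 of 36 were called higher in siANLN (19.4%), beside 5.93% of the 14698 genes tested, and 1 was called lower (2.8%), beside 4.86%. At 48 h, 17 of 36 were called higher (47.2%), beside 22.2% of the 16994 genes tested, and 6 were called lower (16.7%), beside 21.3%. Their median log2 change was 0.013 at 24 h, against -0.0052 over all genes tested, and 0.070 at 48 h, against -0.0027. The median at 24 h had no stable sign: it was -0.00013 with upper quartile factors and -0.00021 in the fit of 12 libraries. Without siNC replicate 1, siNC replicate 3 or siANLN replicate 3 it was -0.0068, -0.0051 and -0.0064. The median size of the change, whatever its direction, was 0.078 against 0.102 at 24 h and 0.126 against 0.181 at 48 h. Their median mean level was 130 CPM against 25.4 CPM over all genes at 24 h and 112 against 23.3 CPM at 48 h, and their median SE was 0.044 against 0.083 and 0.039 against 0.079. A change past 1.2-fold was called for 1 member at 24 h and for 5 at 48 h. The share of all genes called past 1.2-fold was not computed, so these counts have no background beside them.

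The siNC and siANLN libraries did not overlap for 13 of 36 members at 24 h, beside 25.6% of all genes, 7 of them higher and 6 lower in siANLN. At 48 h they did not overlap for 27 of 36, beside 49.7% of all genes, 19 higher and 8 lower. The split of the called members at 48 h depended on the scaling. With library size alone 11 were higher and 7 lower, so that 61.1% of the called members were higher in place of 73.9%, and with upper quartile factors 12 were higher and 7 lower (63.2%). At 24 h the count of members called higher was 4 without siNC replicate 2, and the count called lower was 0 without siANLN replicate 1 and 2 without siNC replicate 3.

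**Figure D1:**
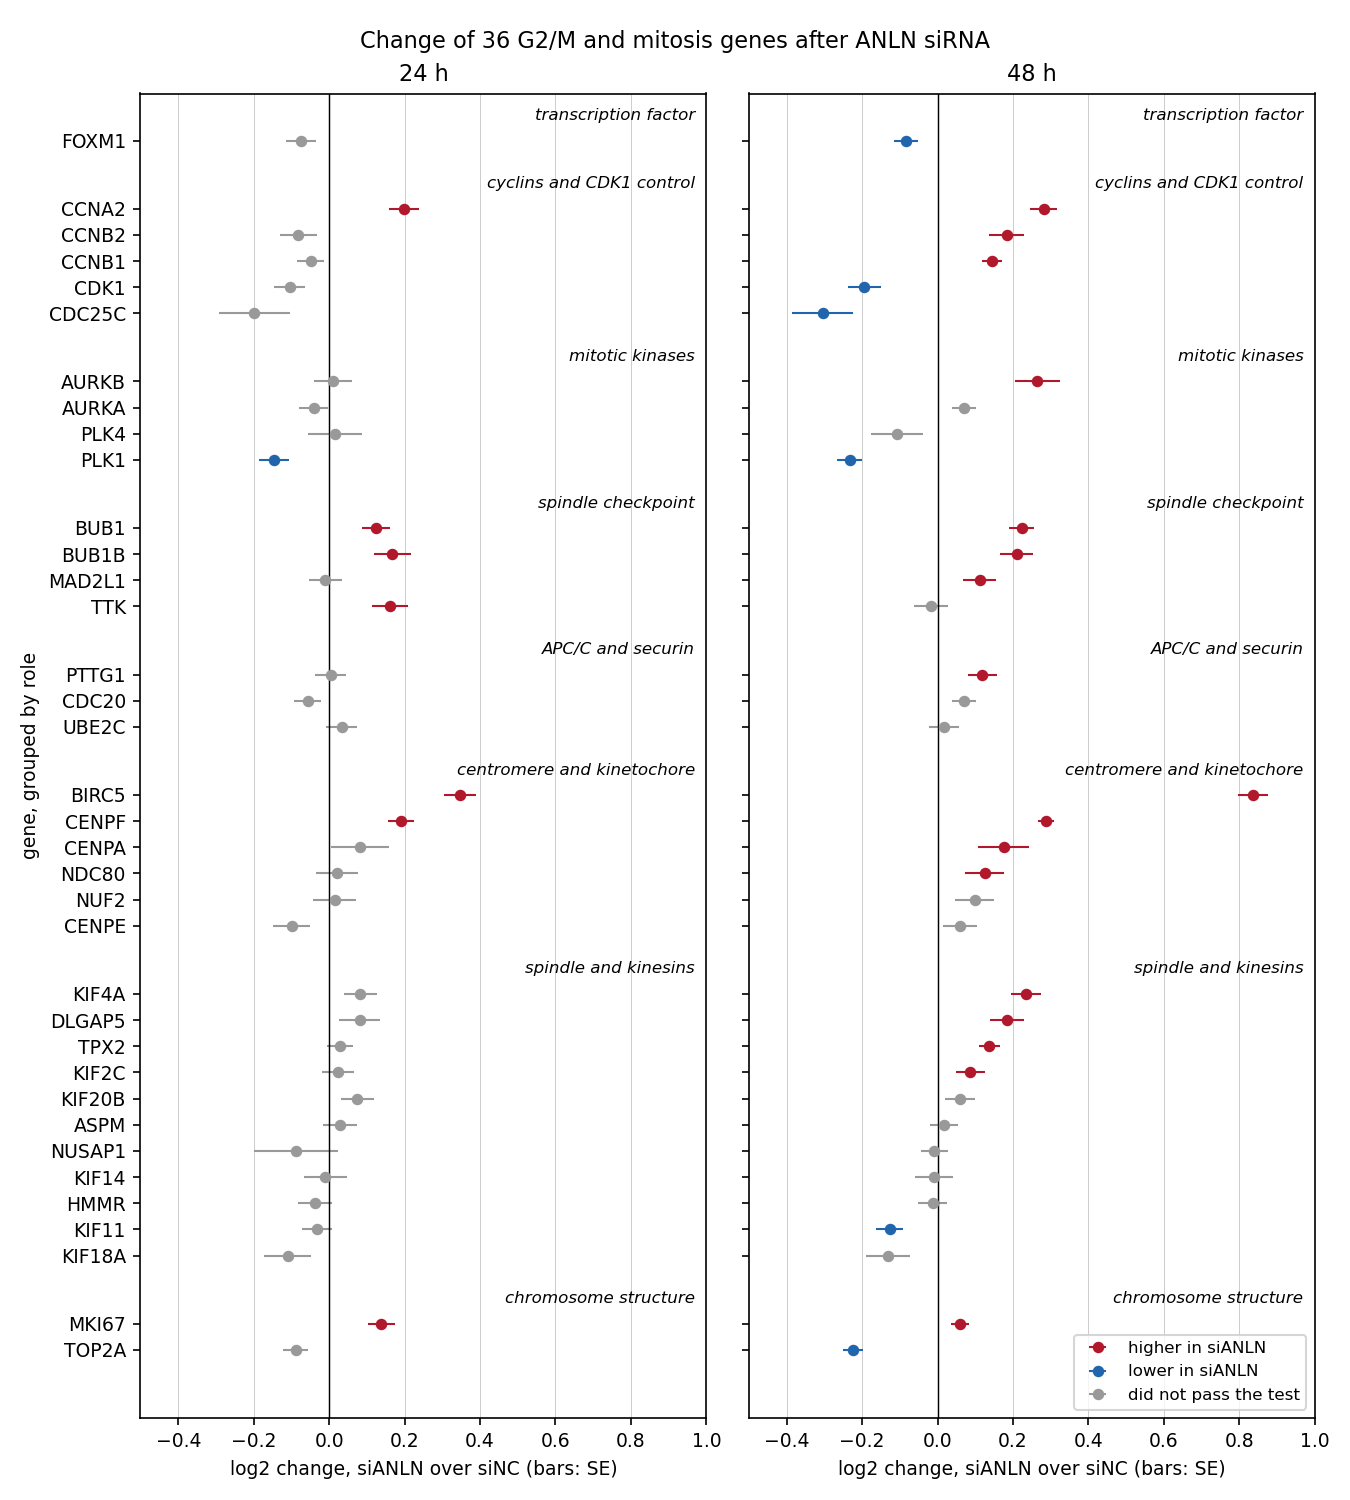
Log2 change of each of the 36 genes in siANLN over siNC at 24 h (left) and 48 h (right), with bars of 1 SE from the edgeR fit of 3 against 3 libraries, grouped by role and ordered within a role by the change at 48 h; colours mark genes called higher, called lower or not called. BIRC5, at 0.35 and 0.84, stands apart from the others, and the other changes at 48 h lie between -0.30 and 0.29.

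At 48 h the cyclins rose, while CDK1, the kinase they activate, and CDC25C, a phosphatase that switches it on, fell. The phosphatases of the CDC25 family did not all fall. CDC25A, which is not a member, rose at 48 h (log2 0.54, SE 0.057, edgeR adjusted p = 3.56e-18). Of 5 genes of cyclins and CDK1 control, 1 was called higher at 24 h, beside 5.93% of all genes. At 48 h 3 were called higher, beside 22.2% of all genes, and 2 lower, beside 21.3%. CCNA2 encodes cyclin A2, which acts with CDK2 and CDK1 from S phase to early mitosis (chr4:121816444-121823933, minus strand, GRCh38). Its level was 148, 154 and 147 CPM in siNC and 171, 172 and 171 CPM in siANLN at 24 h, without overlap, a log2 change of 0.20 (SE 0.039, edgeR adjusted p = 9.88e-05). Its 48 h levels were 123, 133 and 136 CPM in siNC and 151, 160 and 164 CPM in siANLN, a log2 change of 0.28 (SE 0.036, edgeR adjusted p = 5.68e-13). CCNA2 was higher in every siANLN library at both times, and it was 1 of only 2 members, with BIRC5, whose call at 24 h held under each alternative run. CCNB1 encodes cyclin B1, the main partner of CDK1 in mitosis (chr5:69167010-69178245, plus strand). At 24 h its libraries overlapped, at 371, 387 and 392 CPM in siNC and 372, 358 and 381 CPM in siANLN. By 48 h CCNB1 stood at 311, 307 and 308 CPM in siNC and 337, 342 and 345 CPM in siANLN, a log2 change of 0.14 (SE 0.027, edgeR adjusted p = 1.05e-06). The 3 siANLN libraries were thus all above the 3 controls at 48 h alone. CCNB2, cyclin B2, was alike, with 93.1 ± 1.76 against 88.0 ± 5.15 CPM at 24 h (log2 -0.08, not called) and 70.1 ± 2.35 against 79.6 ± 1.99 CPM at 48 h (log2 0.18, SE 0.046, edgeR adjusted p = 0.000385).

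CDK1 lies at chr10:60778331-60794852 (plus strand). It was at 152, 153 and 143 CPM in siNC and 137, 136 and 145 CPM in siANLN at 24 h, where the groups overlapped and the gene was not called (log2 -0.10, edgeR adjusted p = 0.102). Without siNC replicate 3 it was called at 24 h (log2 -0.13, edgeR adjusted p = 0.0393). CDK1 fell at 48 h from 89.1, 92.8 and 89.2 CPM to 83.3, 74.6 and 78.9 CPM, a log2 change of -0.19 (SE 0.044, edgeR adjusted p = 6.98e-05), and no siANLN library reached a control. CDC25C (chr5:138285265-138338355, minus strand) had the largest fall among the 36. Its level was 25.1, 23.6 and 25.2 CPM in siNC and 19.9, 19.0 and 20.9 CPM in siANLN at 48 h, without overlap, a log2 change of -0.30 (SE 0.080, edgeR adjusted p = 0.000672). At 24 h it was 19.0, 21.2 and 18.3 CPM against 15.9, 17.1 and 18.1 CPM, again with every siANLN library below every control, but it was not called (log2 -0.20, SE 0.095, edgeR adjusted p = 0.203). CDC25C shares 8.8% of its exonic bases with FAM53C on the opposite strand and CCNA2 9.1% with EXOSC9. The strand setting of the counting is not given in the sources used here, so reads of such partners cannot be told apart.

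Among the mitotic kinases, PLK1 fell at both times and AURKB rose at 48 h. PLK1, polo-like kinase 1, acts in mitotic entry, spindle assembly and cytokinesis (chr16:23677656-23690367, plus strand). It stood at 191, 198 and 203 CPM in siNC and 168, 180 and 186 CPM in siANLN at 24 h, a log2 change of -0.15 (SE 0.040, edgeR adjusted p = 0.00616). At 48 h it stood at 192, 193 and 194 CPM against 162, 163 and 167 CPM, a log2 change of -0.23 (SE 0.033, edgeR adjusted p = 8.11e-11). The siANLN libraries were all below the controls at both times. The call at 24 h was lost without siANLN replicate 1 (log2 -0.11, edgeR adjusted p = 0.135), and PLK1 shares 12.5% of its exonic bases with genes on the opposite strand. Each limma fit on FPKM lost the 24 h call of PLK1 too. AURKB is the kinase of the chromosomal passenger complex, which corrects faulty attachments and later works at the midzone (chr17:8204733-8210600, minus strand). At 24 h its groups overlapped, at 77.5, 81.4 and 77.4 CPM in siNC and 77.4, 80.3 and 80.6 CPM in siANLN. Its level rose at 48 h from 38.5, 38.2 and 41.1 CPM to 45.1, 47.2 and 49.3 CPM, without overlap, a log2 change of 0.26 (SE 0.060, edgeR adjusted p = 5.78e-05). AURKA, which matures centrosomes and the spindle, was not called at 24 h (log2 -0.04) or at 48 h, where its libraries did not overlap (186 ± 4.12 against 195 ± 4.91 CPM, log2 0.07, edgeR adjusted p = 0.0686). It was called at 48 h without siANLN replicate 2 (log2 0.09, edgeR adjusted p = 0.0353). PLK4, which starts centriole duplication, was called at neither time (log2 0.02 and -0.11, SE 0.071 and 0.068).

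FOXM1, the forkhead transcription factor that acts on many of these promoters, was slightly lower at 48 h (chr12:2857681-2877155, minus strand). It was at 197, 195 and 205 CPM in siNC and 189, 187 and 187 CPM in siANLN at 48 h, without overlap, a log2 change of -0.08 (SE 0.032, edgeR adjusted p = 0.0249). Leaving out siNC replicate 3, siANLN replicate 2 or siANLN replicate 3 ended the call (log2 -0.06, -0.08 and -0.08, edgeR adjusted p = 0.156, 0.0663 and 0.07). So did no filter, DESeq2 and the fit of all 12 libraries, and 10 of 16 alternatives kept it. FOXM1 shares 15.9% of its exonic bases with ITFG2 on the opposite strand. At 24 h its groups overlapped (log2 -0.08, SE 0.039, not called).

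Among the spindle checkpoint genes, 3 of 4 were called higher at each time and none lower. Of all genes tested, 5.93% were called higher and 4.86% lower at 24 h, and 22.2% and 21.3% at 48 h. BUB1, a kinase that recruits checkpoint proteins to kinetochores, stood at 195, 198 and 199.9 CPM in siNC and 219, 210 and 218 CPM in siANLN at 24 h (log2 0.12, SE 0.037, edgeR adjusted p = 0.0172). At 48 h it stood at 155, 161 and 161 CPM against 193, 178 and 186 CPM (log2 0.22, SE 0.033, edgeR adjusted p = 8.82e-10). BUB1 was higher in every siANLN library at both times, but its call at 24 h was lost without siNC replicate 1, siANLN replicate 1 or siANLN replicate 3 (log2 0.11 to 0.12, edgeR adjusted p = 0.0819, 0.0991 and 0.0601). The edgeR fit with no filter and each limma fit on FPKM lost it too. BUB1B encodes BUBR1, a subunit of the complex that inhibits the APC/C. It was at 83.2, 78.1 and 79.1 CPM in siNC and 87.8, 88.8 and 93.2 CPM in siANLN at 24 h (log2 0.17, SE 0.049, edgeR adjusted p = 0.0139). The 48 h levels were 82.7, 77.8 and 79.7 CPM against 89.3, 95.4 and 93.3 CPM (log2 0.21, SE 0.044, edgeR adjusted p = 1.17e-05). The groups did not overlap at either time. Without siNC replicate 2 or siANLN replicate 3 its call at 24 h was lost (log2 0.15 and 0.14, edgeR adjusted p = 0.0917 and 0.101), as it was in each limma fit on FPKM. BUB1B shares 10.2% of its exonic bases with the readthrough gene BUB1B-PAK6 on the same strand. MAD2L1, whose product MAD2 binds CDC20 while kinetochores are unattached, was called at 48 h only. It was at 79.7, 80.0 and 76.7 CPM in siNC and 84.6, 87.9 and 83.0 CPM in siANLN (log2 0.11, SE 0.045, edgeR adjusted p = 0.0318). The call was lost without siNC replicate 3, siANLN replicate 1 or siANLN replicate 2 (log2 0.09, 0.12 and 0.09, edgeR adjusted p = 0.132, 0.05002 and 0.146). Library size alone, upper quartile factors, DESeq2 and each limma fit on FPKM lost it too, and 6 of 16 alternatives kept it.

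TTK, which encodes the checkpoint kinase MPS1, was the only member called at 24 h and not at 48 h. It stood at 89.3, 86.2 and 85.0 CPM in siNC and 97.5, 96.9 and 97.1 CPM in siANLN at 24 h, without overlap (log2 0.16, SE 0.047, edgeR adjusted p = 0.0129). At 48 h it stood at 79.8, 81.0 and 81.0 CPM against 82.0, 79.8 and 77.1 CPM, with overlap (log2 -0.02, SE 0.045, edgeR adjusted p = 0.797). The difference between its changes did not pass the test (-0.16, SE 0.064, edgeR adjusted p = 0.0793), although with library size alone it did (edgeR adjusted p = 0.0162). Without siNC replicate 2 or siNC replicate 3 the call at 24 h was lost (log2 0.16 and 0.15, edgeR adjusted p = 0.0551 and 0.0605), as it was in limma on FPKM with no filter.

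Of the 3 genes of the APC/C and its substrate securin, none was called at 24 h. At 48 h 1 was called higher, beside 22.2% of all genes. PTTG1 encodes securin, which blocks separase until anaphase. It rose from 114, 115 and 111 CPM to 125, 123 and 121 CPM at 48 h, without overlap (log2 0.12, SE 0.038, edgeR adjusted p = 0.00639). The call was lost with library size alone and in each limma fit on FPKM, at an adjusted p of up to 0.113. CDC20, the APC/C activator, was called at neither time, with 284 ± 1.33 against 273 ± 1.74 CPM at 24 h (log2 -0.06, edgeR adjusted p = 0.364) and 203 ± 1.91 against 213 ± 3.84 CPM at 48 h (log2 0.07, edgeR adjusted p = 0.056). Its libraries did not overlap at either time, with siANLN below at 24 h and above at 48 h, and without siANLN replicate 3 it was called at 48 h (log2 0.09, edgeR adjusted p = 0.0473). UBE2C, the ubiquitin-conjugating enzyme of the APC/C, was called at neither time (log2 0.03 and 0.02, SE 0.041 and 0.040). Pseudogene copies named after CDC20 took at most 1.7% of the counts of both.

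Of the 6 centromere and kinetochore genes, 2 were called higher at 24 h (beside 5.93% of all genes), 4 at 48 h (beside 22.2%), and none lower. Other genes of this role went both ways, with 2 higher and 3 lower of 34 at 24 h and 7 higher and 4 lower of 30 tested at 48 h. BIRC5 encodes survivin, a subunit of the chromosomal passenger complex that also inhibits apoptosis (chr17:78214186-78225636, plus strand). Its level was 119, 134 and 130 CPM in siNC and 160, 167 and 161 CPM in siANLN at 24 h, a log2 change of 0.35 (SE 0.042, edgeR adjusted p = 6.53e-10). The 48 h levels were 83.3, 76.2 and 75.1 CPM in siNC and 136, 142 and 141 CPM in siANLN, a log2 change of 0.84 (SE 0.040, edgeR adjusted p = 7.24e-62). BIRC5 was 78.6% higher at 48 h, with every siANLN library far above every control, and was called under each of the 16 alternatives at each time, with log2 changes between 0.77 and 0.88 at 48 h. Its level in the siNC libraries was lower at 48 h than at 24 h, in tables normalised separately. CENPF, a large protein of the outer kinetochore that builds up in G2, had the highest CPM of the 36 (chr1:214603195-214664588, plus strand). It stood at 1125, 1101 and 1084 CPM in siNC and 1304, 1189 and 1284 CPM in siANLN at 24 h (log2 0.19, SE 0.034, edgeR adjusted p = 1.43e-05). Its 48 h levels were 1198, 1120 and 1109 CPM against 1436, 1358 and 1387 CPM (log2 0.29, SE 0.021, edgeR adjusted p = 2.61e-33). No siANLN library of CENPF overlapped a control at either time, but its call at 24 h was lost in limma on FPKM with no filter.

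CENPA, the histone H3 variant of centromeres, and NDC80, which binds microtubules at the kinetochore, were called higher at 48 h, both close to the threshold. CENPA was at 26.6, 30.6 and 31.7 CPM in siNC and 33.8, 32.7 and 33.8 CPM in siANLN (log2 0.18, SE 0.068, edgeR adjusted p = 0.0272). NDC80 was at 57.1, 60.5 and 56.2 CPM in siNC and 61.3, 61.6 and 66.5 CPM in siANLN (log2 0.12, SE 0.051, edgeR adjusted p = 0.037). Neither pair of groups overlapped, and CENPA shares 7.0% of its exonic bases with SLC35F6 on the same strand. CENPA was not called without siNC replicate 1 (log2 0.10, edgeR adjusted p = 0.302), siANLN replicate 1 (log2 0.17, edgeR adjusted p = 0.0686) or siANLN replicate 3 (log2 0.17, edgeR adjusted p = 0.0744). NDC80 was not called without siNC replicate 1, siNC replicate 3 or siANLN replicate 3 (log2 0.11, 0.10 and 0.09, edgeR adjusted p = 0.111, 0.145 and 0.257). Both calls were also lost with library size alone, upper quartile factors, DESeq2 and each limma fit on FPKM. Each was kept in 6 of 16 alternatives. NUF2, the partner of NDC80, had no overlap at 48 h and was not called (log2 0.10, SE 0.053, edgeR adjusted p = 0.124). CENPE, a kinetochore motor, was not called at 24 h (log2 -0.10) or at 48 h (log2 0.06).

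Of the 12 members called at neither time, 6 were spindle and kinesin genes, a role with 11 members. None was called at 24 h, where their log2 changes lay between -0.11 and 0.08. At 48 h, 4 were called higher, beside 22.2% of all genes, and 1 lower, beside 21.3%, with a median log2 change of 0.02. KIF4A, a chromosome-bound kinesin that also works at the midzone, rose from 102, 101 and 100.2 CPM to 122, 119 and 117 CPM at 48 h (log2 0.24, SE 0.039, edgeR adjusted p = 4.09e-08). TPX2, which activates AURKA and nucleates microtubules around chromosomes, rose from 322, 332 and 329 CPM to 360, 358 and 365 CPM (log2 0.14, SE 0.027, edgeR adjusted p = 2.49e-06). DLGAP5 encodes HURP, which stabilises kinetochore fibres, and rose from 72.8, 71.2 and 68.6 CPM to 81.5, 78.1 and 82.0 CPM (log2 0.18, SE 0.046, edgeR adjusted p = 0.000342). In these 3 genes no siANLN library at 48 h overlapped a control, while at 24 h their libraries overlapped and none was called (log2 0.08, 0.03 and 0.08). KIF2C, the microtubule-depolymerising kinesin MCAK, was called at 48 h by a small margin (log2 0.09, SE 0.037, edgeR adjusted p = 0.0471). Leaving out siNC replicate 1, siNC replicate 2, siNC replicate 3, siANLN replicate 1 or siANLN replicate 2 ended that call (log2 0.08, 0.09, 0.09, 0.09 and 0.06, edgeR adjusted p = 0.12, 0.1, 0.0695, 0.0592 and 0.3). Library size alone, upper quartile factors, no filter, DESeq2 and each limma fit on FPKM also ended it, and 3 of 16 alternatives kept it.

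KIF11, the motor that pushes spindle poles apart, was the spindle gene that fell (chr10:92593286-92655395, plus strand). It was at 144, 156 and 157 CPM in siNC and 143, 139 and 136 CPM in siANLN at 48 h (log2 -0.13, SE 0.036, edgeR adjusted p = 0.00155). The lowest control was close to the highest siANLN library, and the call was lost in limma on FPKM with no filter. KIF18A, a kinesin that dampens chromosome movements, lay below the controls in every siANLN library at both times and was not called (log2 -0.11 at 24 h and -0.13 at 48 h, edgeR adjusted p = 0.313 and 0.0551). Without siANLN replicate 3 it was called at 48 h (log2 -0.18, edgeR adjusted p = 0.0221), as it was with library size alone (log2 -0.17, edgeR adjusted p = 0.0121). KIF14, a midbody kinesin, and KIF20B, ASPM and HMMR, which act at the spindle or midzone, were called at neither time, and at 48 h their log2 changes were -0.0093, 0.06, 0.02 and -0.01. NUSAP1, which bundles microtubules, was also not called (log2 -0.09, SE 0.112, at 24 h and -0.0083, SE 0.037, at 48 h). It shares 62.2% of its exonic bases with AC087721.2 on the same strand. NUSAP1 had 188 to 238 counts per library at 24 h and 1526 to 1653 at 48 h, and AC087721.2 had 0 at 24 h and 1665 to 1795 at 48 h, so how reads were divided between them is uncertain.

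Both genes of chromosome structure were called at 48 h, in opposite directions, beside 22.2% of all genes called higher and 21.3% called lower. TOP2A, the topoisomerase that untangles sister chromatids, stood at 423, 430 and 418 CPM in siNC and 374, 355 and 359 CPM in siANLN at 48 h (log2 -0.22, SE 0.026, edgeR adjusted p = 1.9e-15). At 24 h it stood at 499, 504 and 504 CPM against 477, 455 and 485 CPM and was not called (log2 -0.09, SE 0.034, edgeR adjusted p = 0.0881). The siANLN libraries of TOP2A (chr17:40388516-40417950, minus strand) were below the controls at both times, and at 24 h it was called with upper quartile factors, in a fit of all 12 libraries and with the replicate number as a block (edgeR adjusted p = 0.0387, 0.0106 and 0.0481). MKI67 encodes Ki-67, the coat of mitotic chromosomes used as a marker of cycling cells. It rose from 528, 502 and 547 CPM to 599, 553 and 584 CPM at 24 h (log2 0.14, SE 0.035, edgeR adjusted p = 0.00345). At 48 h it stood at 612, 620 and 639 CPM against 673, 654 and 623 CPM (log2 0.06, SE 0.023, edgeR adjusted p = 0.0265), the only call among the 36 whose groups overlapped. Without siNC replicate 2 or siANLN replicate 1 the call at 24 h was lost (log2 0.11 and 0.11, edgeR adjusted p = 0.0767 and 0.0673), as it was in each limma fit on FPKM. The call at 48 h was lost without siNC replicate 1, siNC replicate 2, siANLN replicate 1 or siANLN replicate 2 (log2 0.04, 0.05, 0.03 and 0.06, edgeR adjusted p = 0.148, 0.105, 0.295 and 0.077). Library size alone, upper quartile factors, DESeq2, the fit of all 12 libraries and each limma fit on FPKM lost it too. Of the 16 alternatives at 48 h, 5 kept it.

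**Figure D2:**
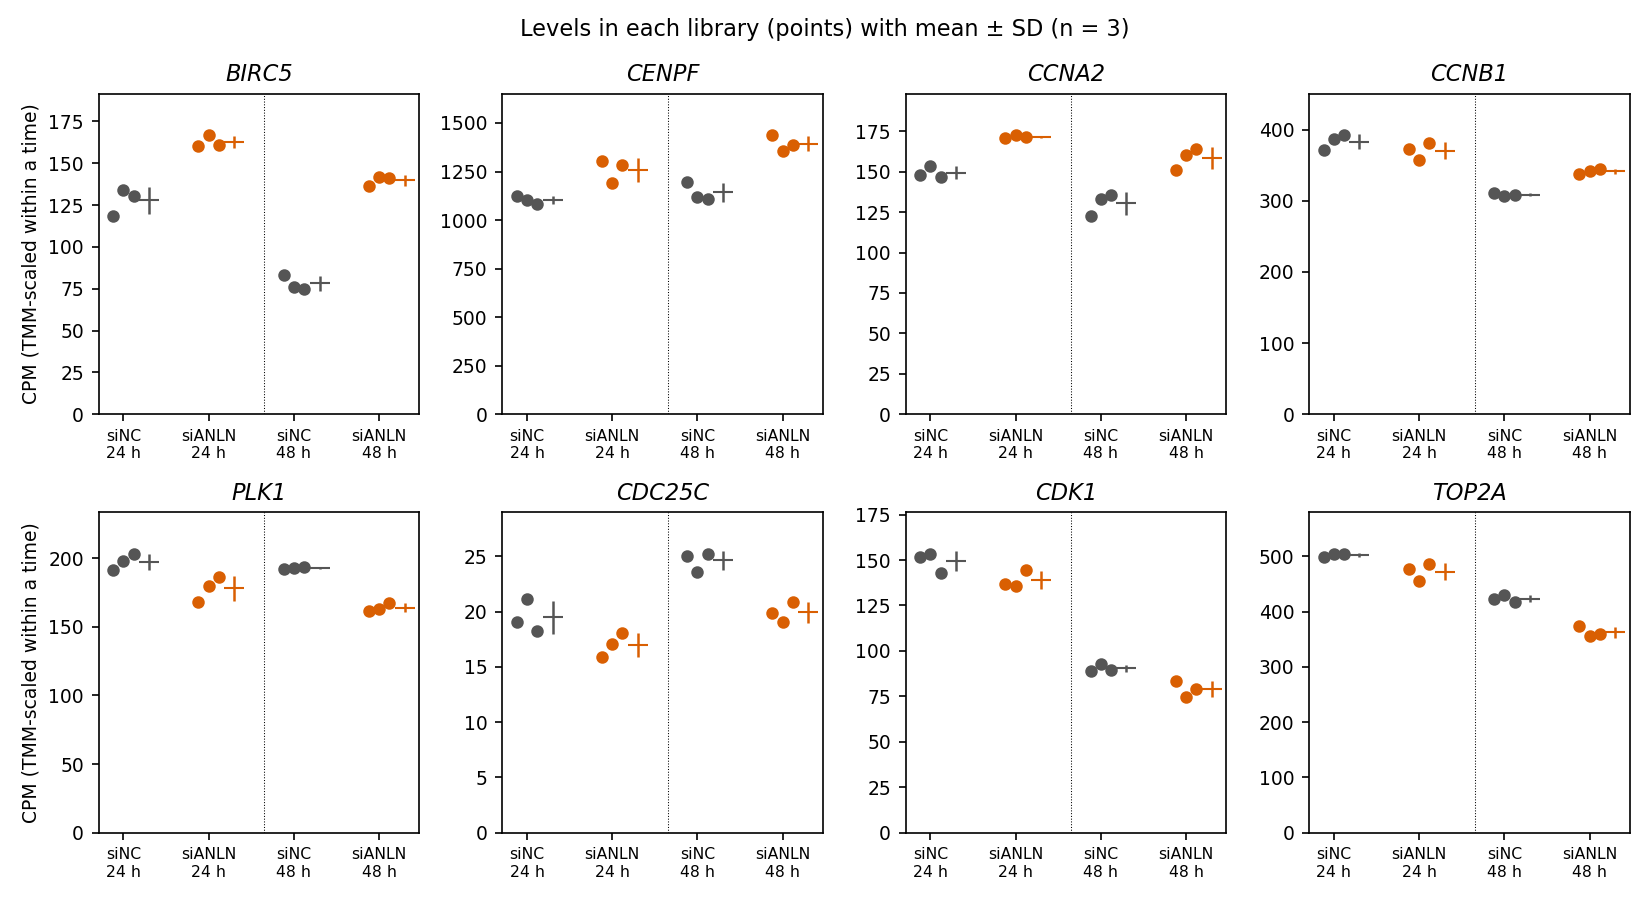
Levels of 8 genes in CPM (vertical axes from 0, TMM-scaled within a time) in each of the 3 libraries per group (points), with mean ± SD beside them; grey is siNC and orange siANLN, and a dotted line parts 24 h from 48 h. BIRC5 rises from 78.2 to 140 CPM at 48 h, CENPF and CCNA2 are higher in siANLN at both times, CCNB1 at 48 h only, and PLK1, CDC25C, CDK1 and TOP2A are lower in siANLN at 48 h without overlap.

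Taken per length, the deposited FPKM put CCNB1 highest in the siNC libraries at both times, at 151 ± 4.198 FPKM at 24 h and 128 ± 1.17 FPKM at 48 h, followed by CDC20 at 140.1 ± 0.658 and 102 ± 1.196 FPKM. The lowest were NUSAP1 at 24 h (4.65 ± 0.416 FPKM) and PLK4 at 48 h (7.41 ± 0.187 FPKM). The siNC level was lower at 48 h than at 24 h for 27 of the 36 genes, with ratios from 0.501 for AURKB to 1.27 for CDC25C, the second highest, and 8.03 for NUSAP1. The tables of the times were normalised separately and list different genes, so time and table processing cannot be told apart in these ratios.

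The changes at the 2 times pointed the same way for 28 of 36 genes. Across the 36 genes the 2 sets of log2 changes had a Pearson correlation of 0.79, and of 0.70 over the 35 without BIRC5, as a description, since genes of one set of libraries are not independent replicates. Called at both times, in the same direction, were 7 genes: CCNA2, BUB1, BUB1B, CENPF, BIRC5, MKI67 and PLK1. In 6 of these the change was larger at 48 h, the exception being MKI67. A further 16 genes were called at 48 h only, 1 at 24 h only and 12 at neither. Over all genes tested, 1585 of 14698 were called at 24 h and 7402 of 16994 at 48 h. More calls at 48 h were thus not particular to the members. The share of all genes called at both times was not computed. The test of the difference itself called 7 of 36 members with a change that was higher at 48 h than at 24 h, beside 8.29% of the 17625 genes tested, and 1 with a lower change, beside 4.71%. Its differences come from a fit of all 12 libraries with its own scaling, so they are not exact subtractions of the changes above. Their median was 0.095 over the 36 and 0.014 over all genes tested.

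BIRC5 had the largest difference, 0.50 (SE 0.061, edgeR adjusted p = 3.49e-10). CCNB2 differed by 0.28 (SE 0.067, edgeR adjusted p = 0.00154) and CCNB1 by 0.21 (SE 0.044, edgeR adjusted p = 0.000277), both from slightly below the controls at 24 h to above them at 48 h. AURKB differed by 0.27 (SE 0.077, edgeR adjusted p = 0.0106). The call of AURKB was lost without siANLN replicate 3 at 48 h (0.23, edgeR adjusted p = 0.0604). The differences of CDC20 (0.14), KIF4A (0.17), TPX2 (0.12) and TOP2A (-0.12) lay closer to the threshold, at edgeR adjusted p = 0.0268, 0.046, 0.0402 and 0.0461. CDC20 lost its call without siNC replicate 2 or siANLN replicate 3 at 24 h, or without siNC replicate 3, siANLN replicate 1 or siANLN replicate 2 at 48 h, with differences of 0.13 to 0.14 (edgeR adjusted p = 0.0505 to 0.075). KIF4A kept its call among single libraries left out only without siNC replicate 2 or siANLN replicate 1 at 24 h, and TPX2 only without siNC replicate 1, siNC replicate 2, siANLN replicate 2 or siANLN replicate 3 at 24 h. TOP2A kept it only without siNC replicate 2, siNC replicate 3 or siANLN replicate 2 at 24 h or siANLN replicate 1 at 48 h. In the other cases the differences were 0.14 to 0.18 for KIF4A, 0.11 to 0.13 for TPX2 and -0.13 to -0.10 for TOP2A, with highest edgeR adjusted p of 0.125, 0.121 and 0.154. Leaving out siNC replicate 3, siANLN replicate 1 or siANLN replicate 3 at 48 h left 4 members with a higher change.

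**Figure D3:**
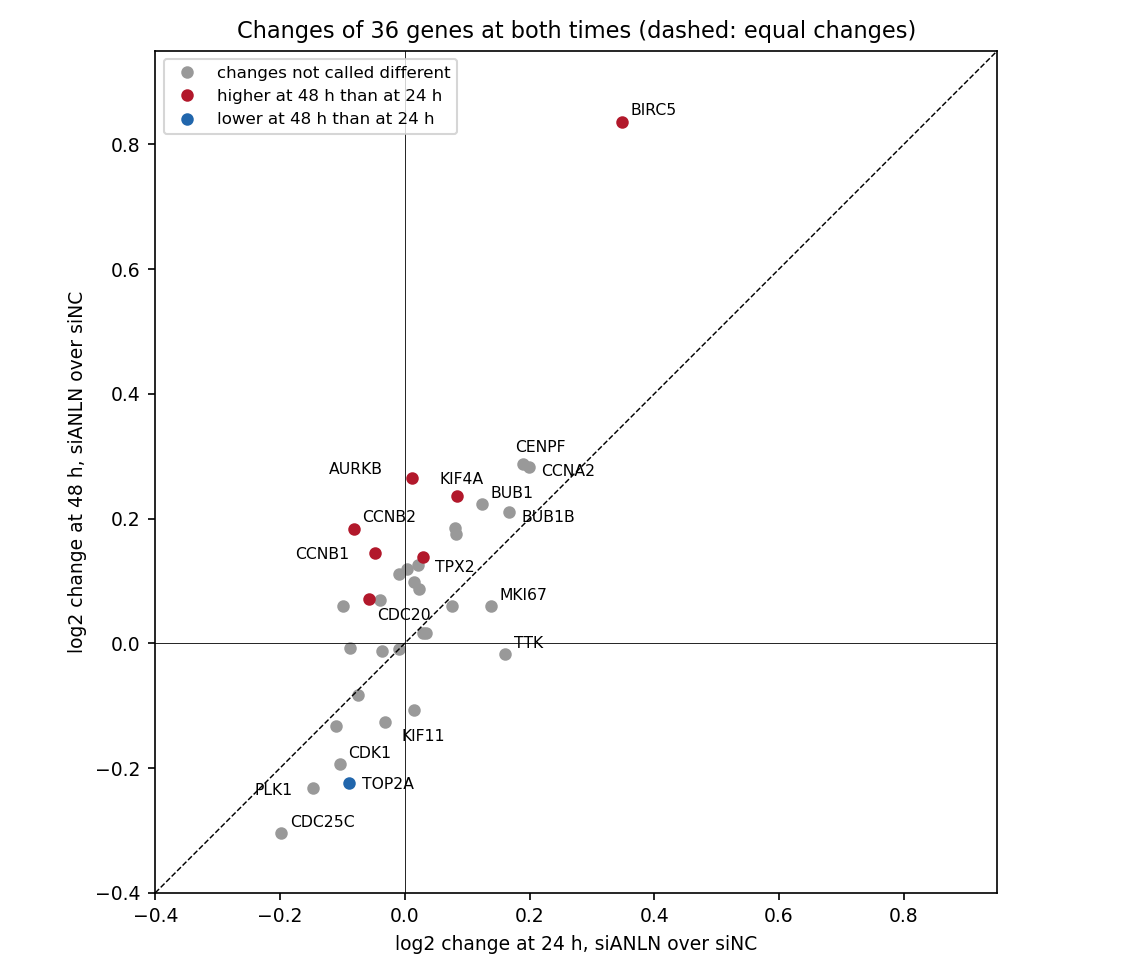
Log2 change of each of the 36 genes at 24 h (horizontal axis) and 48 h (vertical axis), siANLN over siNC, 3 libraries per group; the dashed line marks equal changes, and colours mark the 8 genes whose changes differed between the times in the edgeR test. Of the 36 points, 28 have the same sign at both times; CCNB1 and CCNB2 are below 0 at 24 h and above 0 at 48 h.

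Outside the 36, genes with the same roles also changed in both directions. Of 143 other mitotic genes, all tested at 24 h, 11 were called higher (7.69%, beside 5.93% of all genes) and 9 lower (6.29%, beside 4.86%), shares near those of all genes, with a median log2 change of 0.0071. At 48 h 137 were tested, of which 41 were called higher (29.9%, beside 22.2%) and 24 lower (17.5%, beside 21.3%), with a median of 0.03. The largest change belonged to ZW10, a kinetochore protein of the checkpoint, which rose from 34.0 ± 1.45 to 68.3 ± 3.17 CPM at 24 h (log2 1.01, SE 0.062) and from 21.0 ± 0.368 to 59.4 ± 2.15 CPM at 48 h (log2 1.503, SE 0.065). MAD1L1, the kinetochore partner of MAD2, rose by 0.32 on the log2 scale at 24 h and by 0.73 at 48 h. BUB1 and BUB1B, described above, were likewise called higher at both times. Of the 8 other checkpoint genes, 3 were called higher at 24 h (beside 5.93%) and 4 at 48 h (beside 22.2%), and none lower. At 48 h the remaining 4 were not called. Upstream of CDK1, CDC25A, a phosphatase of the CDC25 family, rose by 0.35 at 24 h and 0.54 at 48 h on the log2 scale, while CDC25C was not called at 24 h and fell at 48 h. ENSA, which when phosphorylated holds back the phosphatase PP2A in mitosis, rose by 0.25 and 0.73. CDKN1A, the CDK inhibitor p21, fell from 71.6 ± 2.76 to 54.6 ± 0.502 CPM at 24 h (log2 -0.39, SE 0.055) and from 146 ± 5.64 to 84.2 ± 2.699 CPM at 48 h (log2 -0.79, SE 0.039). CENPQ, a kinetochore subunit, fell by 0.60 and 0.84, and NEK6, a mitotic kinase, by 0.41 and 0.29 on the log2 scale. Also among those with the smallest p at 24 h were SKA2 (0.48), MIS18A (-0.36) and CDCA2 (-0.21), each called in the same direction at 48 h (0.57, -0.24 and -0.24), and at 48 h MYBL2 (0.44), which encodes B-MYB, CLASP1 (-0.29) and LIN52 (-0.64). For the named genes outside the 36, the changes given here had an edgeR adjusted p of at most 0.00306 at 24 h and 0.000854 at 48 h. S phase genes, a list of 35, had 4 called higher (11.4%, beside 5.93%) and none lower at 24 h and 18 higher (51.4%, beside 22.2%) and 3 lower (8.57%, beside 21.3%) at 48 h, with median log2 changes of 0.05 and 0.11.

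**Figure D4:**
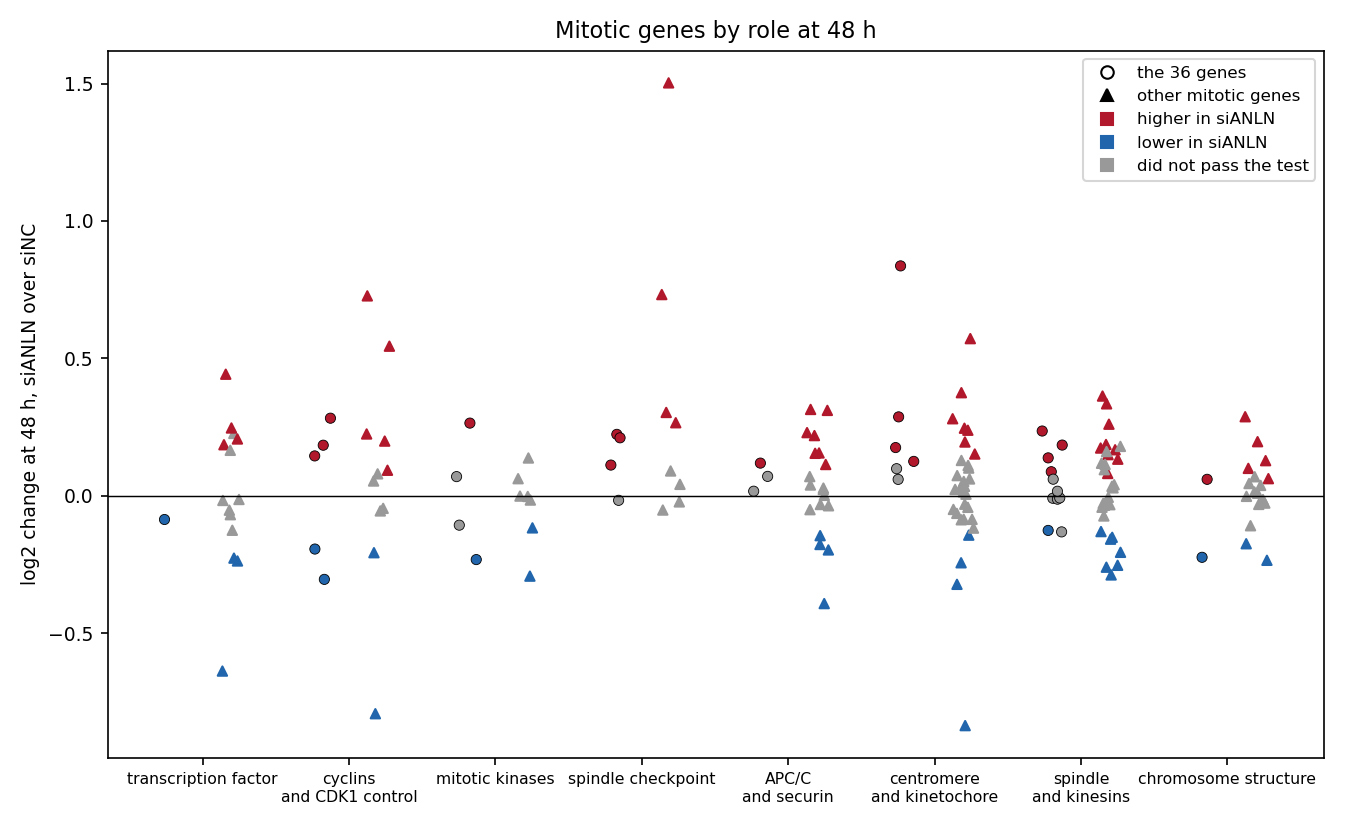
Log2 change at 48 h (siANLN over siNC, 3 libraries per group) of the 36 genes (circles) and of 137 other tested mitotic genes (triangles) by role; colours mark genes called higher, called lower or not called by edgeR. Spindle checkpoint genes lie mostly above 0, with ZW10 at 1.503, but 1 of their 4 circles and 2 of their 8 triangles lie just below it. The other roles also hold genes on both sides of 0, and CENPQ and CDKN1A lie lowest, at -0.84 and -0.79.

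Members with and without the promoter elements could be set side by side for the 30 genes with a window. Of the 21 that held CCAAT together with TTTGAA or TTTAAA, 9 were called higher and 5 lower at 48 h, with a median log2 change of 0.06 and a range from -0.30 to 0.29. Of the other 9 (CCNA2, AURKB, PLK4, BUB1, BUB1B, CENPE, NDC80, NUF2 and KIF2C), 6 were called higher and none lower, with a median of 0.12. Of all genes tested at 48 h, 22.2% were called higher and 21.3% lower. At 24 h 2 of the 21 were called higher and 1 lower, and 3 of the 9 were called higher and none lower, beside 5.93% and 4.86% of all genes. Split by TTTGAA alone, 9 of the 23 genes that held it were called higher and 5 lower at 48 h. Of the 7 without it, 6 were called higher and none lower at that time. In the 200-base stretches printed above, TTTGAA stood in PLK1 and TOP2A and not in CCNB1 and CENPF. In the longer promoter windows behind the counts, however, CENPF, called higher at 48 h, was among the 23 genes that held TTTGAA. The printed genes were picked by their change at 48 h, so no conclusion is drawn from how TTTGAA divides them. No test was run on the counts in this paragraph.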

How the data were processed

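Per the labels' protocols, Trizol-extracted RNA of KYSE150 cells was made into 12 poly(A) libraries, 3 in each of 4 groups, and read in pairs on a HiSeq Xten. Per the submitters' processing notes, the tools were cutadapt 1.18, STAR 2.7.3a, featureCounts and DESeq2 1.44.0, on GRCh38. In the deposited tables are whole-number read counts per gene, with no normalization, and FPKM, counts scaled by the authors for gene length and library total. The strand setting of the library and of the counting is not given in the sources used here. There is 1 pair of tables per time. The 48 h tables repeat 243 lines with identical values, which were kept a single time. Gene positions and exonic overlaps are from GENCODE release 29 (GRCh38), and promoters are from RefSeq (GRCh38.p14).

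Groups follow the labels. Counts were tested within each time with edgeR 4.0.16 in R 4.3.3 (filterByExpr, TMM, robust quasi-likelihood F test, two-sided), and the difference of the changes in a model of all 12 libraries over gene IDs in both tables. Benjamini-Hochberg adjustment ran over all genes tested. The procedure was run on simulated counts with changes larger than most of those of the 36 genes, so calls of smaller changes were not checked by it. Alternatives changed the scaling, the filter, the tool (DESeq2 1.42.0, or limma 3.58.1 on log2 of FPKM plus 0.1 or 1, for genes with a mean of at least 0.5 FPKM or with no filter), the libraries in the fit, a replicate block, or left out each library in turn. No 2 libraries of a group agreed within sampling noise, with a chi-square per degree of freedom of at least 1.26. The 36 genes, the lists of other genes and the tests were chosen with earlier results of these data known. The text names the 36 genes, ANLN and, of the other mitotic genes, the 5 called in each direction with the smallest p at each time. Genes outside this rule (CD68, PTPRC, TEK, COL1A2 and genes that overlap a member) were named after their values were seen. The times differ in how their tables were made, so the 2 cannot be told apart.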

Additional observations from a re-analysis of the deposited data

Results flagged for a closer look

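For 8 of the 36 genes the change after the ANLN siRNA differed between 24 h and 48 h in the test of the difference itself. Values are the change at 48 h minus that at 24 h on the log2 scale, as estimated in the fit of all 12 libraries. The change was higher at 48 h for BIRC5 (0.50), CCNB2 (0.28), AURKB (0.27), CCNB1 (0.21), KIF4A (0.17), CDC20 (0.14) and TPX2 (0.12), and lower for TOP2A (-0.12). The calls of BIRC5, CCNB1 and CCNB2 held under each of the 17 alternatives, and those of the other 5 did not. The tables of the times were processed separately, and the part of that in the differences was not tested.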

How the results depend on the processing

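The calls of 2 of 8 members at 24 h (CCNA2, BIRC5), 15 of 23 at 48 h (not CENPA, FOXM1, KIF11, KIF2C, MAD2L1, MKI67, NDC80 or PTTG1) and 3 of 8 for the difference between the times (BIRC5, CCNB1, CCNB2) held under every alternative run. At 24 h the members called higher were 4, 4 and 2 in limma on FPKM (plus 0.1, plus 1, and plus 0.1 with no filter), and 4 to 7 with a library left out. Those called lower were 0 in each limma fit, 2 with upper quartile factors, 3 in the fit of 12 libraries and 0 to 2 with a library left out. The replicate block gave 7 higher and 2 lower at 24 h, 17 and 6 at 48 h and 8 and 1 for the difference. Correlations of deviations between libraries of the 2 arms lay between -0.033 and 0.032, so no pairing by replicate number was seen over the genes as a whole. These correlations cannot show a pairing limited to some genes. With the replicate block 1772 genes were called at 24 h, against 1585, and 7355 at 48 h, against 7402. All genes called at 24 h were 763, 761 and 543 in the limma fits, against 1585, and at 48 h 4401 in limma with no filter, against 7402. At 48 h the members called higher were 11 with library size alone and in each limma fit, and their median log2 change was 0.034 in those 4 settings. For the difference, 4 members were higher and 2 lower with library size alone, and 0 were lower with DESeq2 size factors or no filter. With a library left out, 4 to 7 were higher and 0 to 1 lower. The cause of these shifts was not tested.

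Signs turned for the 24 h median of the members, which ran from -0.0068 to 0.025 with a library left out, and for single genes with changes near 0 that were called in neither setting. At 24 h AURKB was -0.0020 and -0.0021 and PTTG1 -0.0091 and -0.0092 with upper quartile factors and in the fit of 12 libraries, and PTTG1 -0.0014 with no filter. At 48 h UBE2C and ASPM were -0.0196 and -0.0197 with library size alone, -0.0039 and -0.0040 with upper quartile factors, and -0.0188, -0.0186 and -0.0188, and -0.0194, -0.0179 and -0.0194, in the 3 limma fits. With a library left out, the 24 h changes ran from -0.0015 to 0.035 for AURKB, -0.041 to 0.090 for PLK4, -0.033 to 0.019 for MAD2L1, -0.024 to 0.023 for PTTG1, -0.060 to 0.075 for NDC80, -0.035 to 0.070 for NUF2, -0.070 to 0.013 for KIF11, -0.0087 to 0.058 for KIF2C, -0.033 to 0.033 for KIF14, -0.0995 to 0.0041 for HMMR and -0.032 to 0.085 for ASPM. Those at 48 h ran from -0.039 to 0.0058 for TTK, -0.061 to 0.071 for KIF14, -0.0024 to 0.093 for KIF20B, -0.043 to 0.020 for HMMR, -0.035 to 0.0092 for NUSAP1 and -0.012 to 0.032 for ASPM. Of the other mitotic genes named at 24 h, ENSA, CENPQ, MIS18A and CDCA2 lost their calls in some limma fits. With 3 libraries a group, no single size of change marked the limit of what was called. At 24 h the smallest called change among the 36 was 0.12 (BUB1), and CDC25C at -0.20 was not called. At 48 h MKI67 was called at 0.06, and KIF18A at -0.13 was not.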
